A study of Mus musculus with 16 samples.

Results

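Odorant receptors are the G protein-coupled receptors with which olfactory sensory neurons detect smells, and most mouse odorant receptor genes lie in large clusters on a few chromosomes. The genes described here are the receptors on chromosomes 3, 4, 6, 8, 13 and 15, where they stand in small groups or alone. They were taken by position and name, by a rule that holds no measured values, though earlier results of these data were known. A probe set counted if its identifier placed it on chromosome 3, 4, 5, 6, 8, 12, 13, 15 or 18. Its symbol also had to be Olfr followed by a number. This gave 78 of the 1080 odorant receptors named that way among 19505 genes tested. Chromosome 6 held 27, chromosome 4 held 23, chromosome 13 held 12, chromosome 15 held 9, chromosome 8 held 5 and chromosome 3 held 2, while chromosomes 5, 12 and 18 held 0. Counting neighbours under 1 Mb apart as a run, the 78 receptors formed 15 runs, of which 8 held 3 or more receptors, 1 held 2 and 6 held 1.

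The series measured gene expression on Clariom S arrays in cells sorted from the olfactory mucosa of C57BL/6 mice with an S100a5-tauGFP reporter, in which GFP follows the gene of an activity-linked calcium-binding protein. Per the labels, 24 male and female mice, 7 to 12 weeks of age, were kept singly in clean air for 40 h at 3.1 L/min, and after 26 h they received 10 s pulses every 20 min of either filtered air (vehicle) or bourgeonal, an aldehyde odorant (odor). Each library came from 3 mice, and the GFP- and GFP+ fractions of a pool were titled with the same replicate number, so there were 4 vehicle pools and 4 odor pools with 2 libraries each. The 4 groups of 4 libraries were thus vehicle titled GFP-, vehicle titled GFP+, odor titled GFP- and odor titled GFP+, and all of them carried the reporter. The gate in the title is the opposite of the gate in the cell type entry in every one of the 16 samples. The titles were used for grouping, as names only. Each gate ratio is the log2 value in titled GFP- minus that in titled GFP+. S100a5 itself was higher in titled GFP-, which the cell type entry calls GFP+, in 8 of 8 pools. It was higher by 1.02 ± 0.25 (SD) on the log2 scale (exact two-sided sign-flip test, p = 0.00781). This is the direction that the reporter gives for GFP+ cells, so the gates in the titles may be swapped. Which label is right was not tested. Omp, which mature olfactory sensory neurons express strongly, lay between 18.63 and 18.97 in all 16 libraries. This is near the top of the range, as the highest value of each library was 19.38 to 19.59. Whether the gates held equal shares of mature neurons was not tested. A background guide for each library was the 95th percentile of the vomeronasal receptor genes, which are not expected in this tissue. On the log2 scale it ran from 4.69 to 4.97 in titled GFP- libraries and from 4.29 to 4.64 in titled GFP+ libraries.

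As background, each mature olfactory sensory neuron expresses a single allele of a single receptor gene, so the level of a receptor in sorted cells depends on how many neurons have chosen it. In these bulk samples fewer neurons with a receptor and less receptor RNA per neuron cannot be told apart. Receptors of related sequence are grouped into MOR families, whose genes usually arose by local duplication and lie next to each other. Sites for Ebf proteins, also called O/E or Olf-1 sites, are a known feature of odorant receptor promoters.

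Upstream sequence could be read from RefSeq (GRCm38.p6) for 66 of the 78 receptors. In 50 of these the annotated gene begins with ATG, so the model starts at the coding sequence and the window before it is not known to be a promoter, and in the other 16 it does not. The O/E-type motif CCCNNGGGA, searched on both strands in the 250 bases before the annotated start, was found in 3 of the 66 (4.55%), all among the 16 without an ATG start, against 5.60% of all 32851 annotated starts and 2.27% of 925 odorant receptor starts. These 3 windows are shown because they belong to neighbouring receptors on the same side of the gate ratio (Olfr287 and Olfr288) and to a receptor on the other side (Olfr374). They are written 5′ to 3′ on the gene's strand, with the motif in capitals, and lie at chr15:98221057-98221306 (minus strand) for Olfr287, chr15:98195543-98195792 (minus strand) for Olfr288 and chr8:72106790-72107039 (plus strand) for Olfr374.
Olfr287: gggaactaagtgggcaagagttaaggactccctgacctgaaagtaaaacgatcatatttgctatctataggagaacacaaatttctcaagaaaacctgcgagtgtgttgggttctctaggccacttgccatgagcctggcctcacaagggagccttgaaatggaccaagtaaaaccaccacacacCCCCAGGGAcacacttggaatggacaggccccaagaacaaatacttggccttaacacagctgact
Olfr288: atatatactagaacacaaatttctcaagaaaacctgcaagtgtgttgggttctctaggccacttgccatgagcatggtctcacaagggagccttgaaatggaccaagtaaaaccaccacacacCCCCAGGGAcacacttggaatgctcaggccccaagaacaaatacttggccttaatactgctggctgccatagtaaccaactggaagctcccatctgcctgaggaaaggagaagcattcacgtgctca
Olfr374: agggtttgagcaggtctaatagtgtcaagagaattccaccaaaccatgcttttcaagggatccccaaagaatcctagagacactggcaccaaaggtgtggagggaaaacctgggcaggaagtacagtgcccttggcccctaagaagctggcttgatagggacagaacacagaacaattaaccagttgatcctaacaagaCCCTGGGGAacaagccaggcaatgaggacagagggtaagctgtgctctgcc
The motif begins 65 bases before the annotated start of Olfr287, 127 before that of Olfr288 and 51 before that of Olfr374. The Olfr287 and Olfr288 windows aligned over 188 columns, of which 177 (94.1%) were identical, with an unbroken match of 67 bases. Olfr286, the next receptor of the same MOR286 family, shared no more than 7 bases in a row with Olfr287 in the best local alignment.

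In vehicle pools, 22 of the 78 receptors were higher in the titled GFP- gate and 27 were lower, while 29 did not pass (limma, adjusted p under 0.05). Over all genes tested, 6.23% were higher and 9.95% were lower. In either direction 62.8% of the 78 passed, close to 63.1% of the 1002 odorant receptors on other chromosomes and above 16.2% of all genes. By direction 28.2% of the 78 were higher and 34.6% lower, against 36.2% and 26.8% of those other receptors. The differences between these shares were not tested. The median gate ratio of the 78 was 0.21, against 0.25 for the other receptors and 0.09 for all genes. Ratios over 2-fold that also passed numbered 16 on the higher side and 23 on the lower side, against 2.07% and 6.66% of all genes. Of the 49 calls 38 held under every alternative in which they were tested, and the others are named with their losses below. Among the 38, Olfr159 and Olfr371 were removed by the filter on dim probe sets and were not tested under it. Libraries of the gates did not overlap for 19 receptors higher and 23 lower in titled GFP-, where 8.1% and 10.2% of all genes did so. The share of calls on the higher side was 44.9%. It was 61.9% when every library was centred on its median over all genes, a step that moved the median gate ratio of all genes from 0.09 to 0.44: 39 receptors were then higher, among them all 22, and 24 were lower, all of them among the 27.

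**Figure D1:**
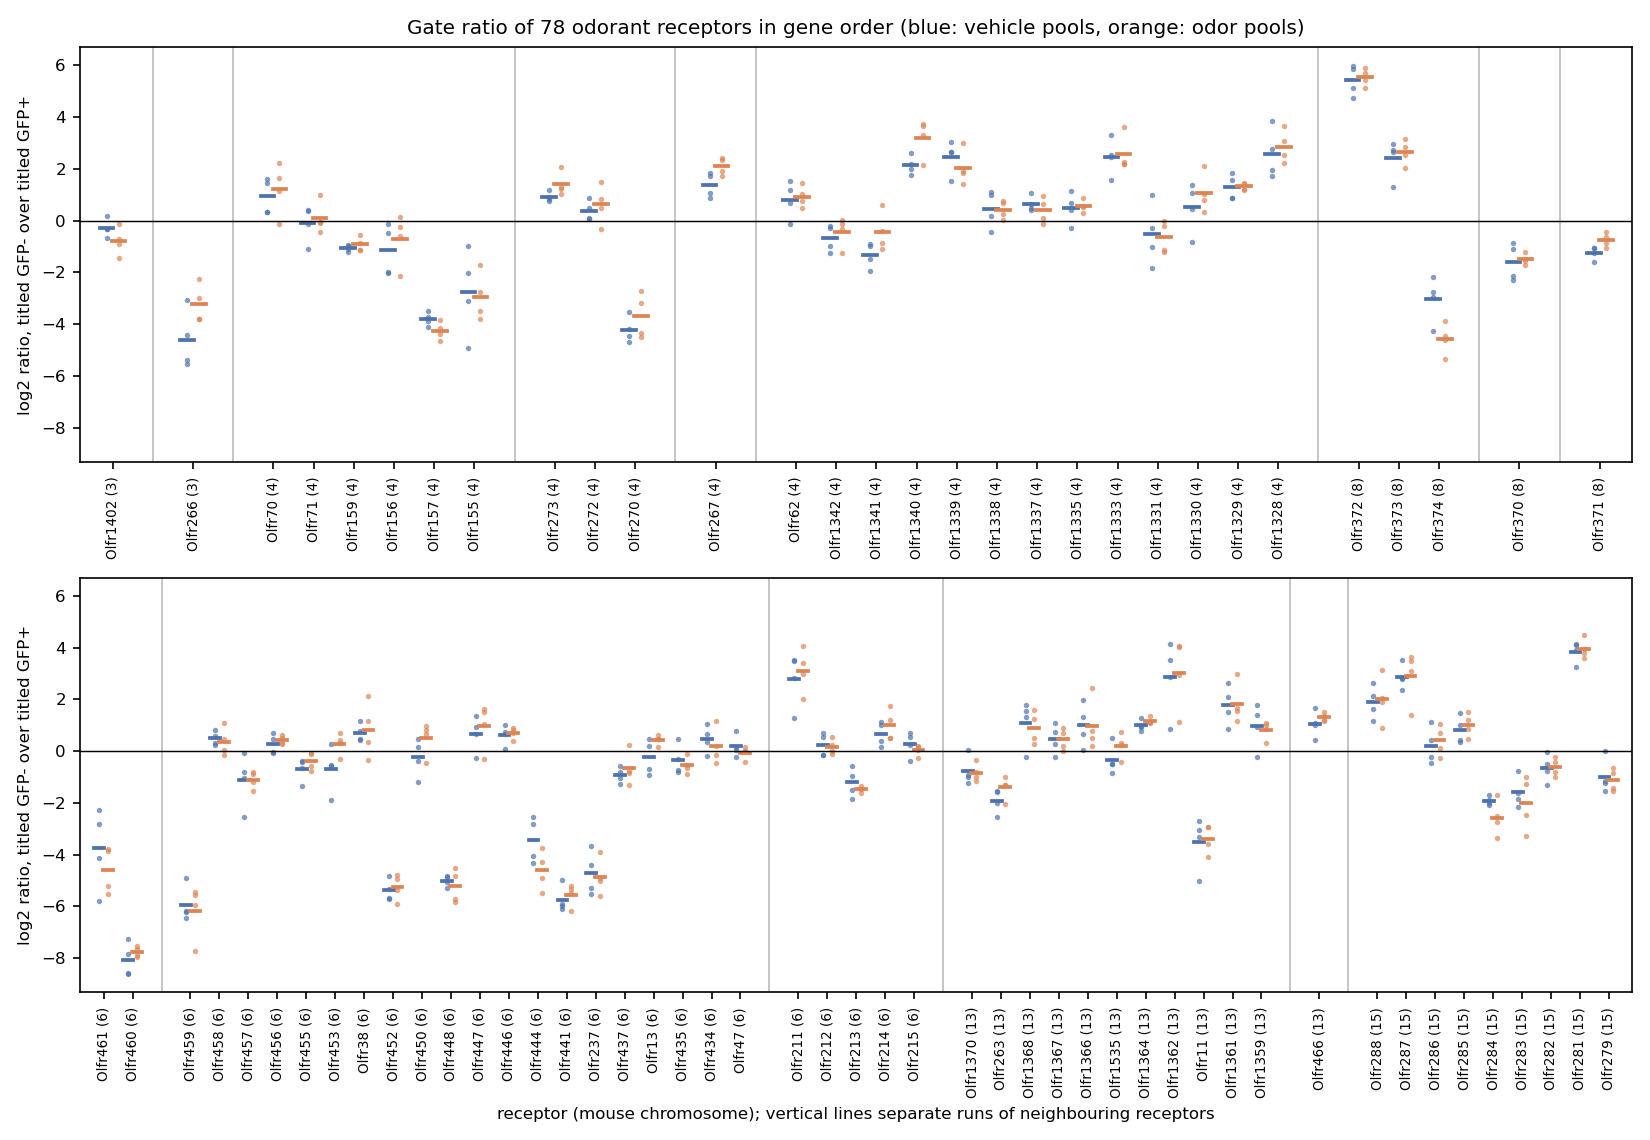
Log2 gate ratio (titled GFP- over titled GFP+) of the 78 receptors in gene order, with chromosomes in parentheses and vertical lines between runs; points are pools (blue vehicle, orange odor) and bars are means of 4 pools. Vehicle means run from -8.07 for Olfr460 to 5.42 for Olfr372, and receptors on opposite sides of 0 stand next to each other in several runs.

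Cells other than mature neurons were measured beside these ratios. In vehicle pools all 5 measured immune cell genes were lower in titled GFP-, as were 5 of 5 microvillar cell genes, 4 of 5 sustentacular cell genes, 2 of 2 erythroid genes and 5 of 6 genes of immature olfactory sensory neurons. The summed level of the immune genes was 6.72 to 7.78 in titled GFP- and 14.50 to 16.35 in titled GFP+ (log2), and Cd79a, a B cell gene, was below background in all titled GFP- libraries. Sustentacular genes summed to 12.27 to 14.13 against 15.23 to 15.56, and microvillar genes to 7.08 to 7.34 against 10.94 to 11.96. Erythroid genes summed to 7.52 to 7.92 against 9.46 to 10.77. Of the Bowman gland genes, Sox9 was lower in titled GFP- and Obp1a higher, with Obp1a below background in all 16 libraries, and the summed level of the 4 was 6.95 to 8.10 against 9.90 to 10.78. Respiratory ciliated cell genes passed in 0 of 2, with Dnah5 below background in every library, and summed to 5.08 to 5.98 against 4.80 to 5.50. Immature neuron genes had a median gate ratio of -3.66, with Gng8 at -4.72, Dpysl3 at -4.48 and Gap43 at -2.85. Their sum of 16.55 to 16.68 against 16.43 to 16.93 is carried by Ncam1, which did not pass at 0.11. The part of these cells in the receptor ratios was not tested.

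The lowest gate ratios were on chromosome 6, where 12 of 27 receptors were lower in titled GFP- and 2 were higher. All 3 measured receptors of family MOR120 were lower. Olfr460 read 5.55, 4.14, 5.16 and 5.10 in the 4 vehicle titled GFP- libraries and 12.81, 12.73, 13.74 and 12.93 in the titled GFP+ libraries. The gates lay more than 7 log2 units apart in every pool, with a mean ratio of -8.07 ± 0.21 (SE, limma, adjusted p = 9.58e-09). In 1 of the 4 titled GFP- libraries it was below background, and with that library counted at its background guide the ratio was 232-fold. Olfr459 read 4.45, 5.63, 5.58 and 5.25 against 10.64, 10.53, 12.01 and 11.48, and its ratio was -5.94 ± 0.36 (adjusted p = 1.03e-06 by limma). Its gates did not overlap, and 1 of 4 titled GFP- libraries was below background. Olfr461, the neighbour of Olfr460, was below background in all 4 titled GFP- libraries and read 5.99, 8.0, 7.43 and 5.88 in titled GFP+. It was therefore at least 3.83-fold lower in titled GFP-, counting each dim library at its background guide. Other bounds given as "at least" were made the same way.

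The MOR261 family of 11 receptors on chromosome 6 was mixed, with 5 lower, 1 higher and 5 not passed. Olfr441 read 7.21, 6.54, 6.14 and 6.05 in vehicle titled GFP- and 12.20, 12.43, 12.26 and 12.01 in titled GFP+, a ratio of -5.74 ± 0.21 (adjusted p = 4.19e-08 by limma). Olfr448, Olfr237 and Olfr444 had ratios of -5.02, -4.72 and -3.44. The gates of all 4 receptors did not overlap. Olfr446, which lies beside Olfr444, was on the other side: it read 13.35, 14.22, 13.51 and 13.28 against 13.26, 13.47, 12.86 and 12.27, a ratio of 0.62 ± 0.16 (adjusted p = 0.0228 by limma) with gates that overlapped. It lost this call without the pool as a block and without vehicle pool 2, 3 or 4 (adjusted p from 0.0721 to 0.125, limma). Olfr437 had a ratio of -0.92 and lost its call without vehicle pool 3 or 4 (adjusted p 0.0618 to 0.0770). The ratios of Olfr447, Olfr13, Olfr435, Olfr434 and Olfr47 lay between -0.34 and 0.67 without passing.

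In family MOR257, Olfr452 was below background in all 4 vehicle titled GFP- libraries and read 8.89, 9.24, 9.26 and 9.11 in titled GFP+, which made it at least 18.8-fold lower in titled GFP- (limma, adjusted p = 5.09e-08). Olfr457 was lower by 1.11 on the log2 scale (adjusted p = 0.0359 by limma), close to the threshold. It lost the call without the pool as a block, with centring, and when odor pool 2 or 4 was left out or vehicle pool 1, 3 or 4 was (adjusted p 0.0503 to 0.0987). The other 4 receptors of that family did not pass. Olfr38 had the highest ratio of its run, 0.71, with gates that did not overlap in vehicle pools, and did not pass (adjusted p = 0.175 by limma). It passed when libraries were centred, at a ratio of 1.07 and an adjusted p of 0.0169.

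A separate run on chromosome 6 held Olfr211 and the MOR119 receptors Olfr212 to Olfr215. Olfr211 read 14.56, 13.00, 12.35 and 14.13 in vehicle titled GFP- and 11.07, 10.19, 11.07 and 10.61 in titled GFP+. Every titled GFP- library was above every titled GFP+ library, with a ratio of 2.78 ± 0.38 (adjusted p = 0.000459 by limma). Olfr213 was lower, at 12.23, 12.19, 12.79 and 12.85 against 13.73, 14.02, 13.73 and 13.41, with a ratio of -1.21 ± 0.19 (adjusted p = 0.00111 by limma) and no overlap. Olfr212, Olfr214 and Olfr215 did not pass, with ratios of 0.24, 0.67 and 0.28.

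**Figure D2:**
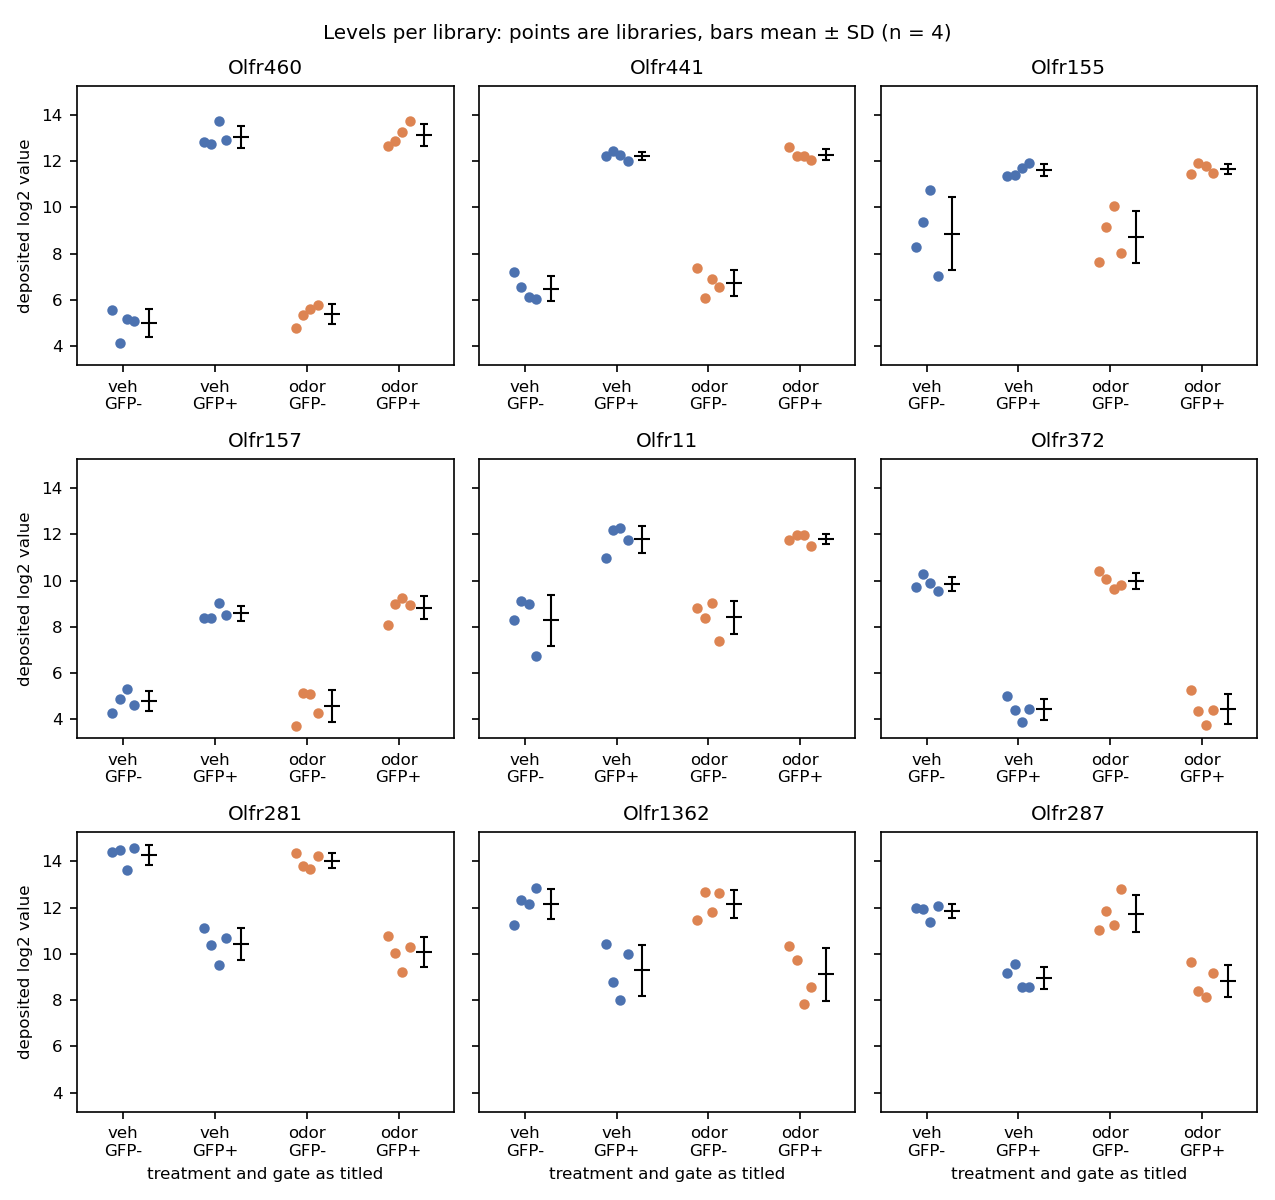
Deposited log2 value of 9 receptors in each library by treatment and gate as titled; points are libraries and black bars are means ± SD (n = 4). The gates of each of these receptors are separated in both treatments, with titled GFP- lower for Olfr460, Olfr441, Olfr155, Olfr157 and Olfr11 and higher for Olfr372, Olfr281, Olfr1362 and Olfr287.

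On chromosome 4 the MOR262 family included the mOR37 receptors, which are known for being expressed in a patch in the centre of the epithelium and have been described as receptors for long-chain fatty aldehydes. Of the 4 measured here, Olfr155 (mOR37a), Olfr157 (mOR37c) and Olfr159 (mOR37e) were lower in titled GFP-, and Olfr156 (mOR37b) did not pass. Olfr157 read 4.29, 4.89, 5.32 and 4.63 in vehicle titled GFP- and 8.39, 8.38, 9.03 and 8.52 in titled GFP+, a ratio of -3.80 ± 0.16 (adjusted p = 7.72e-08 by limma), with 3 of 4 titled GFP- libraries below background. Olfr155 read 8.28, 9.39, 10.73 and 7.03 against 11.38, 11.41, 11.72 and 11.94, a ratio of -2.75 ± 0.53 (adjusted p = 0.00458 by limma). The gates did not overlap for either receptor, but Olfr155 varied more between pools. Olfr159 was below background in all 4 titled GFP- libraries, at 2.95 to 3.58, and close to background in titled GFP+, at 3.94 to 4.79. Its ratio of -1.07 therefore gives no fold. Olfr156 read 6.25, 8.13, 8.43 and 6.31 against 8.28, 8.27, 8.89 and 8.28, a ratio of -1.15 ± 0.40 (adjusted p = 0.0797 by limma) with overlapping gates.

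The 6 other MOR262 receptors were spread on both sides. Olfr270 was lower, reading 4.58, 5.38, 5.75 and 6.18 in vehicle titled GFP- and 8.78, 10.08, 10.21 and 9.73 in titled GFP+, a ratio of -4.23 ± 0.29 (adjusted p = 2.69e-06 by limma). Olfr273, at the other end of the same run, was higher, with a ratio of 0.93 ± 0.17 (adjusted p = 0.00328 by limma). It lost this call without the pool as a block (adjusted p = 0.0839). Olfr267, which stands alone, was higher by 1.38 ± 0.19 (adjusted p = 0.000427 by limma) with no overlap. Olfr70, Olfr71 and Olfr272 did not pass in vehicle pools, at 0.94, -0.11 and 0.38.

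A run of 13 receptors of families MOR258 and MOR259 on chromosome 4 held 6 higher, 1 lower and 6 not passed. Of the odorant receptors on other chromosomes 36.2% were higher and 26.8% lower. Whether the run differs from them was not tested. Olfr1328, at one end, read 10.01, 10.73, 11.04 and 11.11 in vehicle titled GFP- and 8.28, 8.76, 8.28 and 7.27 in titled GFP+, a ratio of 2.57 ± 0.33 (adjusted p = 0.000255 by limma). Olfr1339, Olfr1333, Olfr1340 and Olfr1329 had ratios of 2.46, 2.46, 2.13 and 1.28. All 5 receptors had gates that did not overlap. Olfr1337 also passed, at 0.65, but was below background in all 16 libraries, and it lost the call with quantile normalization and without odor pool 2 or any single vehicle pool (limma, adjusted p 0.0504 to 0.159). Olfr1341 was the lower member, reading 7.31, 7.62, 6.73 and 7.46 against 9.24, 8.59, 8.22 and 8.37, a ratio of -1.33 ± 0.26 (adjusted p = 0.00553 by limma). It lies beside Olfr1340, whose ratio has the opposite sign.

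The highest ratio was on chromosome 8. Olfr372 read 9.73, 10.27, 9.88 and 9.56 in vehicle titled GFP- and 5.01, 4.42, 3.90 and 4.43 in titled GFP+, a ratio of 5.42 ± 0.21 (adjusted p = 5.85e-08 by limma). In 2 of the 4 titled GFP+ libraries it was below background, and with these counted at their guides the ratio was 37.6-fold. Its family member and neighbour Olfr373 was higher too, by 2.42 ± 0.26 (adjusted p = 8.44e-05 by limma). The next gene, Olfr374 of family MOR130, was lower, reading 5.43, 5.25, 4.91 and 5.63 against 8.17, 8.20, 9.19 and 7.81, a ratio of -3.04 ± 0.31 (adjusted p = 5.03e-05 by limma). This run of 3 thus held ratios 8.46 log2 units apart. Olfr370 and Olfr371, each alone on chromosome 8, were lower, by 1.60 and 1.24 on the log2 scale. Olfr371 was below background in all 4 titled GFP- libraries and near it in titled GFP+.

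Chromosome 13 carried MOR256 receptors, a family with members known for responding to many odorants. Of 10 measured, 5 were higher in titled GFP-, 3 were lower and 2 did not pass. Olfr1362 read 11.27, 12.33, 12.15 and 12.83 in vehicle titled GFP- and 10.41, 8.80, 8.0 and 9.97 in titled GFP+, a ratio of 2.85 ± 0.55 (adjusted p = 0.00459 by limma). Olfr11, the next gene, read 8.30, 9.11, 8.98 and 6.74 against 10.99, 12.17, 12.28 and 11.75, a ratio of -3.52 ± 0.33 (adjusted p = 2.96e-05 by limma). Olfr1361 follows and was higher again, by 1.78 ± 0.32 (adjusted p = 0.00267 by limma). The gates of these 3 receptors did not overlap, and the sign changed at each step along the chromosome. Olfr1364 was higher by 0.99, while Olfr263 and Olfr1370 were lower by 1.92 and 0.77 on the log2 scale. Olfr1370 lost its call with centring and without vehicle pool 1, 2 or 3 (limma, adjusted p 0.0896 to 0.127). Olfr1368 and Olfr1359 had ratios of 1.10 and 0.96 that passed narrowly. Both lost the call with a trend and robust prior and without vehicle pool 2, 3 or 4, and Olfr1359 also without odor pool 2, 3 or 4 (adjusted p 0.0702 to 0.154 for Olfr1368 and 0.0509 to 0.161 for Olfr1359, limma). Olfr1367 and Olfr1535 did not pass, and Olfr1535 was below background in all 16 libraries. Olfr1366 of family MOR130 was at 1.00 and did not pass (adjusted p = 0.100 by limma). Olfr466, alone on this chromosome, was higher by 1.05 ± 0.18 (adjusted p = 0.00197 by limma).

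The 9 receptors of chromosome 15 held the MOR286 pair whose upstream windows are printed above. Olfr287 read 11.96, 11.93, 11.39 and 12.07 in vehicle titled GFP- and 9.17, 9.56, 8.55 and 8.57 in titled GFP+, a ratio of 2.88 ± 0.32 (adjusted p = 0.000110 by limma). Olfr288 read 9.81, 9.69, 8.86 and 10.19 against 8.18, 8.54, 6.71 and 7.57, a ratio of 1.89 ± 0.32 (adjusted p = 0.00187 by limma). Neither receptor's gates overlapped. Olfr286 read 12.56, 11.47, 11.17 and 11.54 against 11.43, 11.03, 11.41 and 12.02, so its gates overlapped, and it did not pass at 0.22. Probes for near-identical receptors can bind each other's RNA, and this was not tested.

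The MOR160 family on chromosome 15 had 2 receptors higher, 2 lower and 1 not passed. Olfr281 read 14.39, 14.49, 13.64 and 14.57 in vehicle titled GFP- and 11.13, 10.38, 9.51 and 10.68 in titled GFP+. The lowest titled GFP- library stood above the highest titled GFP+ library, and the ratio was 3.85 ± 0.18, or 14.4-fold (limma, adjusted p = 1.79e-07). Olfr285 was higher by 0.82, a call lost without the pool as a block and without vehicle pool 2 or 3 (adjusted p 0.0899 to 0.171, limma). Olfr284 was lower at -1.91 ± 0.22 (adjusted p = 0.000110 by limma), reading 4.97, 4.74, 4.64 and 4.71 against 6.84, 6.80, 6.65 and 6.42, with 3 of 4 titled GFP- libraries below background. Olfr283 was lower by 1.59 on the log2 scale. Olfr279 of family MOR122, at the end of the run, was lower by 0.98 on the log2 scale. It lost this call without the block and without vehicle pool 1, 2 or 4 (adjusted p 0.0781 to 0.102, limma). Olfr266, the other measured MOR122 receptor and 1 of the 2 on chromosome 3, was below background in all 4 vehicle titled GFP- libraries and read 7.57, 8.85, 8.67 and 8.82 in titled GFP+, at least 12.0-fold lower in titled GFP- (limma, adjusted p = 1.04e-05). Olfr1402, also on chromosome 3, was below background in all 8 vehicle libraries.

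**Figure D3:**
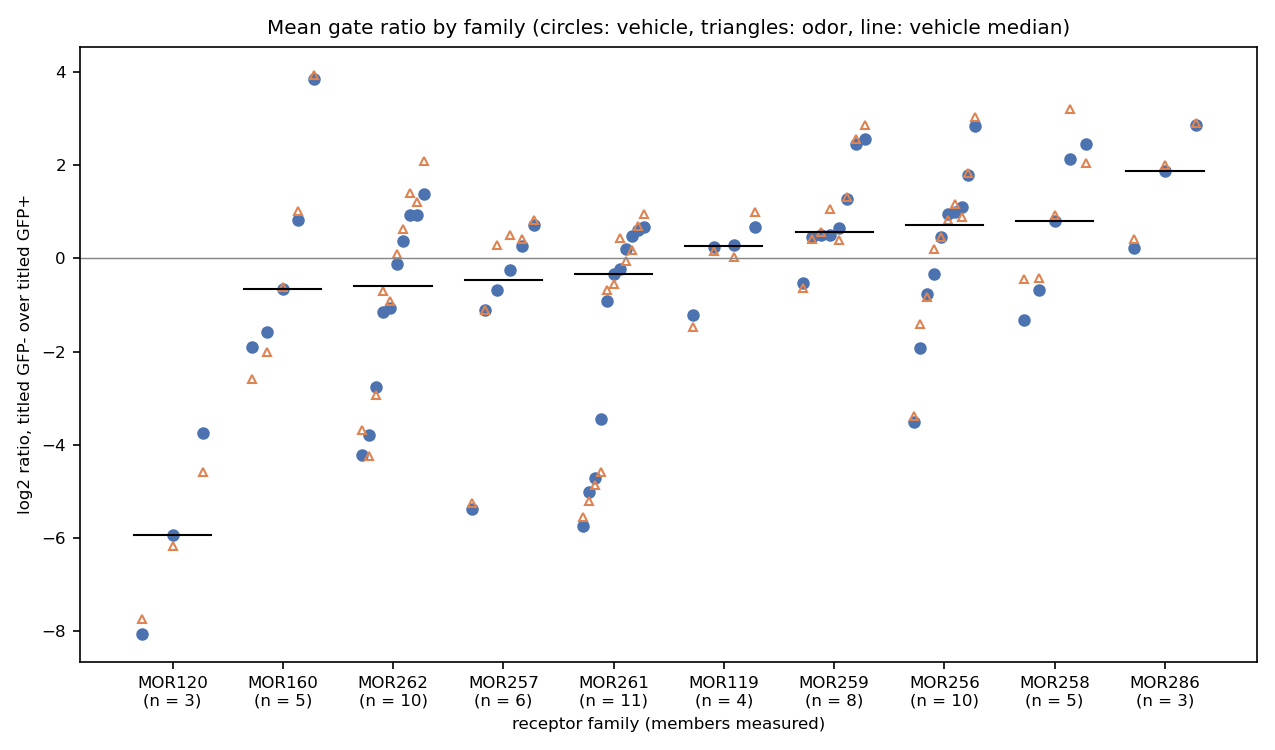
Mean log2 gate ratio of the receptors in each MOR family with 3 or more members, with circles for vehicle pools, triangles for odor pools and a line at the family's vehicle median. MOR120 lies wholly below 0, MOR286 wholly above it, and MOR160, MOR262 and MOR256 have receptors far to both sides.

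In all, 56 of the 78 receptors were above background in all 16 libraries. Receptors below background in all 4 vehicle libraries of titled GFP- but not of titled GFP+ were Olfr266, Olfr159, Olfr461, Olfr452, Olfr371 and Olfr282, and 3 receptors were below in both gates. For 0 receptors was the titled GFP+ gate alone below background in all 4 libraries, in vehicle or in odor pools. The guide itself was higher in titled GFP- libraries (4.69 to 4.97) than in titled GFP+ libraries (4.29 to 4.64). A receptor at the same level in both gates can therefore count as below background in titled GFP- alone. For Olfr159, Olfr371 and Olfr282 no bound is given. Of the 63 neighbouring pairs within runs, 51 joined receptors of the same family. In vehicle pools both members passed in 21 of the 63. Of these, 13 pairs were on the same side, all 13 within a family, and 8 were on opposite sides, 6 of them within a family.

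In odor pools 22 receptors were higher in titled GFP- and 25 were lower (limma, adjusted p under 0.05), where 7.82% and 10.2% of all genes were. In either direction 60.3% of the 78 passed, against 66.5% of the other odorant receptors, and the medians were 0.25 for the 78, 0.38 for the other receptors and 0.10 for all genes. By direction 28.2% of the 78 were higher and 32.1% lower, against 40.2% and 26.2% of the other receptors, which was not tested. Ratios over 2-fold that passed numbered 19 higher and 21 lower, against 2.35% and 6.92% of all genes. The higher side held 46.8% of the calls, and 63.9% after centring, with 39 receptors higher. Gates did not overlap for 22 receptors on each side, against 9.17% of genes higher and 10.1% lower. Neighbours that both passed were on the same side in 11 pairs and on opposite sides in 7. All 5 immune, 5 microvillar, 5 sustentacular and 2 erythroid cell genes were lower in titled GFP- in odor pools too, as were 5 of 6 immature neuron genes (list median -3.11) and Sox9. The immune genes summed to 7.13 to 8.32 in titled GFP- and 15.18 to 16.21 in titled GFP+ (log2), and their part was not tested here either.

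The ratios of odor pools stood close to those of vehicle pools. The same 19 receptors were higher and the same 24 lower in both treatments, 25 passed in neither and 0 changed side. Over the 78 receptors mean odor and mean vehicle ratios correlated at 0.985 (Pearson) and 0.977 (Spearman). These describe receptors measured on the same 16 arrays, and receptors are not independent replicates. Olfr460 read 4.80, 5.36, 5.63 and 5.77 in odor titled GFP- and 12.67, 12.88, 13.28 and 13.72 in titled GFP+, a ratio of -7.75 ± 0.21 (adjusted p = 6.51e-09 by limma). Olfr372 read 10.40, 10.08, 9.63 and 9.81 against 5.28, 4.38, 3.73 and 4.39, a ratio of 5.53 ± 0.21 (adjusted p = 4.76e-08 by limma), with 3 of 4 titled GFP+ libraries below background. The receptors with the lowest and the highest vehicle ratio were therefore again at the ends. Olfr452 was at least 18.9-fold and Olfr461 at least 5.48-fold lower in titled GFP-. Olfr1337, Olfr1368, Olfr1359, Olfr1341, Olfr455 and Olfr437 passed in vehicle pools alone, and Olfr70, Olfr62, Olfr214 and Olfr1402 in odor pools alone, which is no test of a difference. Olfr70 in odor pools was at 1.22 (adjusted p = 0.0349 by limma), and without odor pool 1, 2 or 3 its ratio was 1.25, 1.07 or 0.89 with an adjusted p of 0.0873 to 0.160. In vehicle pools Olfr70 did pass with centring (1.29, adjusted p = 0.0126), with quantile normalization (1.24, 0.0257) and without odor pool 4 (0.94, 0.0377). Olfr1402, at -0.80 (adjusted p = 0.0199 by limma), lost its call with centring, at -0.45 (adjusted p = 0.0781), and without odor pool 1, 3 or 4 (adjusted p 0.0511 to 0.0983), and its titled GFP- libraries were all below background. Olfr455 lost its vehicle call with centring, at -0.34, and without vehicle pool 1 or 4 (adjusted p 0.0768 to 0.137, limma). Of the 47 odor calls 38 held under every alternative that tested them, with Olfr159 and Olfr371 again removed by the dim filter. Besides Olfr70 and Olfr1402, those lost without some odor pool are given with the highest adjusted p among all alternatives that lost them: Olfr62 (pool 1, 2 or 3, up to 0.116), Olfr446 (pool 3 or 4, up to 0.0702), Olfr214 (pool 3 or 4, up to 0.0638), Olfr457 (any pool, up to 0.131), Olfr1370 (pool 1, 2 or 3, up to 0.0898) and Olfr279 (pool 2, up to 0.0537), by limma. Olfr285 lost its call without the pool as a block (adjusted p = 0.0779).

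Whether bourgeonal moved a receptor between the gates was asked by the difference of the gate ratios, odor minus vehicle. The difference passed for 0 of the 78 receptors (limma, smallest adjusted p = 0.823) and for 0% of all genes. At an unadjusted p under 0.05 (limma) there were 8 of the 78 receptors, 70 of the 1002 other odorant receptors and 1109 of all 19505 genes. The median difference was 0.11 for the 78, 0.13 for the other receptors and 0.02 for all genes. It was under 1 in size for 74 receptors, with a median size of 0.23, beside a median SD between pools of 0.59 in vehicle and 0.55 in odor. The 95% interval of the difference, not adjusted for the number of genes, reached a median of 0.77 to either side. Differences smaller than that could not be told from 0 for a typical receptor. Larger ones could also fail after adjustment, as did the largest, 1.54 in size. Pool ratios of odor and vehicle overlapped for all 78 receptors, while 1.89% of genes had all odor pools above and 1.6% all odor pools below the vehicle pools.

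The 6 receptors with the smallest unadjusted p came closest. Olfr374 had gate ratios of -2.74, -2.96, -4.28 and -2.18 in vehicle pools and -4.60, -3.90, -5.35 and -4.46 in odor pools. Odor pools lay lower except that vehicle pool 3 fell among them, and the difference was -1.54 with a 95% interval of -2.51 to -0.57 (limma, unadjusted p = 0.00542, adjusted p = 0.823). Olfr266 had the largest positive difference, 1.41 (0.21 to 2.61), with vehicle pools at -3.08, -5.53, -4.44 and -5.40 and odor pools at -3.78, -3.79, -2.97 and -2.26. Olfr1340 had ratios of 1.75, 2.18, 1.97 and 2.62 in vehicle pools and 2.14, 3.67, 3.29 and 3.72 in odor pools, a difference of 1.07 (0.30 to 1.85). For both receptors most odor pools were above most vehicle pools, with overlap. Olfr444 differed by -1.16 (-2.19 to -0.12), Olfr453 by 0.96 (0.07 to 1.86) and Olfr267 by 0.72 (0.13 to 1.31). For Olfr266 and Olfr374 the titled GFP- gate was below background in all 4 libraries of 1 treatment, which limits the size of the ratio there. For Olfr266 some odor titled GFP- libraries were below background too.

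**Figure D4:**
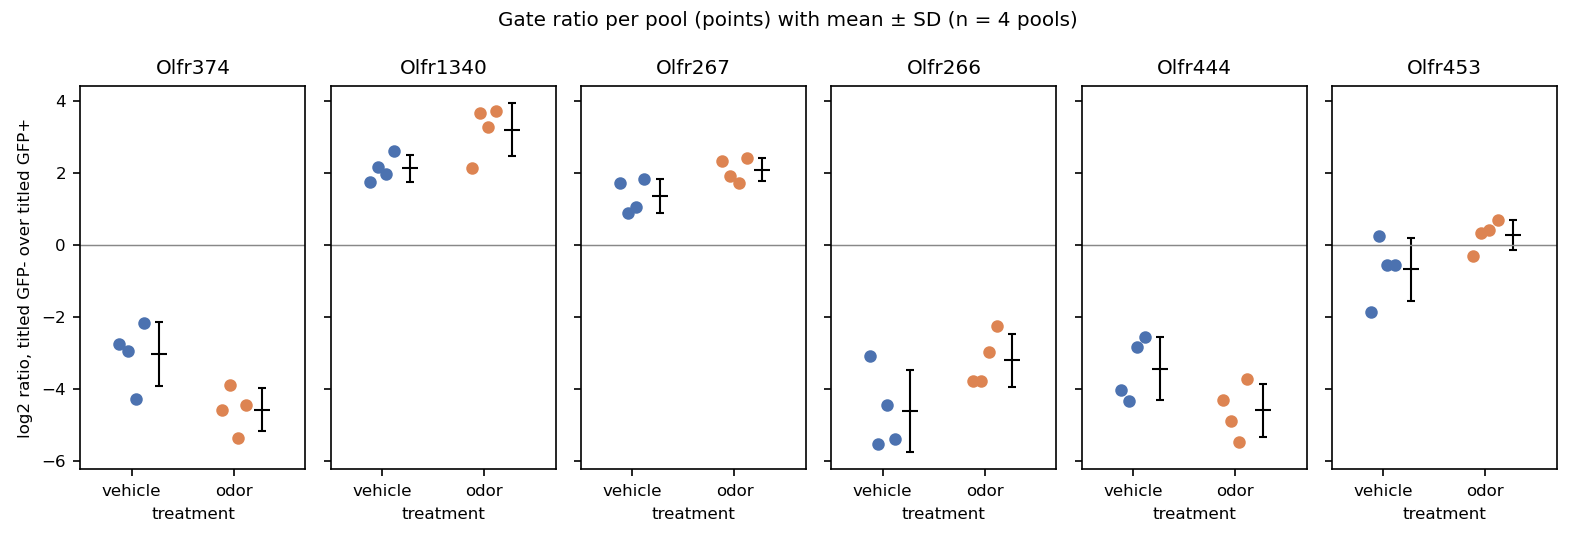
Log2 gate ratio per pool (points) for the 6 receptors with the smallest unadjusted p for the difference, vehicle beside odor, with black bars at the mean ± SD (n = 4 pools). The means differ by -1.54 for Olfr374 and 1.07 for Olfr1340, and the pools of the treatments overlap for each receptor.

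Odor was also compared with vehicle inside each gate. These comparisons use the same libraries as the difference above, so their values are given side by side and are not separate evidence. In titled GFP- the test passed for 0 of the 78 receptors (limma, smallest adjusted p = 0.816) and 0% of all genes. An unadjusted p under 0.05 (limma) was found for 9 of the 78, 73 of the 1002 other odorant receptors and 869 of all 19505 genes. Olfr374 read 4.20, 4.42, 4.16 and 4.03 in odor and 5.43, 5.25, 4.91 and 5.63 in vehicle titled GFP- libraries. All odor libraries were below all vehicle libraries, and also below background, so the measured difference of -1.10 (limma, unadjusted p = 7.43e-05) has no exact size. With odor libraries counted at their guides the means of Olfr374 were at least 1.41-fold apart, a difference that did not pass. Olfr444 read 6.15, 5.34, 4.87 and 5.34 against 6.22, 6.17, 6.83 and 6.72, a difference of -1.06 (-1.64 to -0.48). Its groups did not overlap either. Olfr1341 differed by 0.80 and Olfr213 by -0.59. Olfr266 was below background in all 4 vehicle libraries and in some odor libraries, so no fold is given. Olfr284 was below background in 4 odor and 3 vehicle libraries, and no fold is given. Over the 78 receptors, 4 had all odor libraries below and 1 had all odor libraries above the vehicle libraries, where 1.25% and 1.56% of genes did.

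In titled GFP+ the test passed for 0 of the 78 receptors (limma, smallest adjusted p = 0.999). Over all genes 0.0103% were lower, which is 2 genes, both odorant receptors on other chromosomes. At an unadjusted p under 0.05 (limma) there were 2 of the 78, 77 of the 1002 other odorant receptors and 827 of all 19505 genes. Olfr1340 read 5.52, 4.48, 3.95 and 4.73 in odor and 6.46, 5.50, 5.12 and 5.74 in vehicle titled GFP+ libraries, a difference of -1.04 (95% interval -1.78 to -0.29, limma, unadjusted p = 0.0104). Its groups overlapped, with 1 odor library below background. Olfr455 differed by -0.57 (-1.03 to -0.11), and Olfr13, Olfr435, Olfr1402 and Olfr214 by -0.50, 0.52, 0.50 and -0.40. For 0 of the 78 receptors were the odor and vehicle libraries of this gate fully apart, where 1.11% of genes were higher and 1.24% lower without overlap.

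Pools differed most for a few receptors. In vehicle pools the SD of the gate ratio was 1.68 for Olfr155, 1.57 for Olfr461 and 1.43 for Olfr1362. In odor pools it was 1.37 for Olfr1362 and 1.06 for both Olfr459 and Olfr283. Olfr1362 was among the most variable in both treatments, with ratios from 0.86 to 4.15 in vehicle pools and from 1.13 to 4.07 in odor pools. All 8 pools lay on the same side of 0 for 45 of the 78 receptors, or 57.7%, against 63.0% of all 1080 odorant receptors and 20.3% of all genes. The receptors on other chromosomes whose levels were most like those of Olfr372 over the 16 libraries were Olfr101, Olfr520 and Olfr533, with Pearson correlations of 0.991, 0.988 and 0.986. For Olfr460 they were Olfr1384, Olfr1140 and Olfr390, at 0.992, 0.992 and 0.990. These libraries share the split by gate, and the correlations are given as a description.

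Other genes of receptor neurons were tested in the same fits. Of 12 genes of the odor transduction cascade, 3 were higher in titled GFP- in vehicle pools and 0 lower: the phosphodiesterase Pde1c by 0.64, the exchanger Slc24a4 by 0.49 and the chloride channel Ano2 by 0.44. The median of the list was 0.20. Of 7 genes of mature olfactory sensory neurons 1 was higher, again Ano2, with a list median of 0.02. Of 11 genes of receptor choice and trafficking 0 were higher and 1 was lower, the lamin B receptor Lbr at -1.09, a protein whose loss from the nuclear envelope is part of neuron maturation. In odor pools Cbx5 was lower as well. Of 8 genes that mark zones of the epithelium 0 passed in either treatment (limma), with 0 in vehicle and 2 in odor pools at an unadjusted p under 0.05, and the median was 0.08 in vehicle pools. The list of 6 activity-linked genes had 4 higher and 2 lower in vehicle pools: Lrrc3b by 1.71, Kirrel2 by 1.11, Pcdh10 by 1.08 and S100a5 by 0.95 were higher, and Calb2 at -4.64 and Kirrel3 at -0.54 were lower. In odor pools the same 4 were higher and Calb2 was lower. Of the 39 genes in these 5 lists, 0 passed in the difference of the gate ratios or within a gate (limma). At an unadjusted p under 0.05 there were 1 in the difference, 2 within titled GFP- and 1 within titled GFP+.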

How the data were processed

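Gene expression of sorted olfactory mucosa cells was measured on 16 arrays. The deposited values are log2 expression values. The submitters' processing notes name Affymetrix Expression Console, with which the authors processed the arrays. The sources used here give neither its version nor the summarisation nor a genome build. Of 28846 probe sets, 94 spike-in or background controls were left out, as were 6546 whose identifier holds neg or pos. Of the rest 19572 named 1 gene, 0 several and 2634 none. Per gene the probe set with the highest mean was kept, so 67 were set aside and 19505 genes remained. All 78 receptors had 1 probe set, so none was lost, and all 78 matched RefSeq (GRCm38.p6), which gave gene order, family names and sequences. The test was limma 3.58.1 in R 4.3.3 (lmFit, eBayes), two-sided, with p-values adjusted by Benjamini-Hochberg over 19505 genes, a threshold of 0.05 and no filter on dim probe sets. Both gate ratios came from 1 fit of the 16 libraries, blocked by pool, as did their difference. Odor against vehicle within a gate used 8 libraries and no block. The pool comes from the replicate number in the titles, and deviations of the 2 gates of a pool correlated by 0.098 to 0.287. Arrays have no read depth, and their number limits the precision. Each library holds RNA of 3 mice, so the p-values measure the spread between pools. Library medians over genes lay between 5.94 and 6.00 in titled GFP- and between 6.28 and 6.36 in titled GFP+. The gates did not overlap in this, and centring removes that offset.

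The fit was tested on simulated data with independent noise in each library and no pool effect. That simulation therefore did not check the block by pool. Receptors were named by a rule: both ends of each run by vehicle ratio, every receptor of runs of 1 or 2, the 6 smallest p of each odor comparison, the 3 most variable per treatment, and the receptors most like the highest and the lowest. Further receptors were chosen after their values were seen. The receptors and gene lists were chosen with earlier results of these data known. Alternatives were no block, a replicate block, centring, quantile normalization, a filter on dim probe sets, the mean of a gene's probe sets, another prior and leaving out each pool.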

Additional observations from a re-analysis of the deposited data

Results flagged for a closer look

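The gate ratio of each receptor named by the rule was examined in the 4 pools of each treatment for a value far from the others, 66 groups in all. In 1 of them a pool stood apart: the vehicle pool 2 ratio of Olfr459 was -4.91, and the other vehicle pools lay between -6.44 and -6.19. The gap to the nearest pool was 0.840 of the range of the 4 pools, above Dixon's critical value, and chance gives such a value in about 1 of 20 groups. Without that pool the vehicle ratio was -6.29 (limma, adjusted p = 4.25e-06). For 0 of the 78 receptors were all vehicle pools on one side of 0 and all odor pools on the other.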

How the results depend on the processing

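Of 98 recounts of called receptors over all alternatives, 96 stayed within 1.5 times the count first given. The other 2 came from centring each library on its median, with 39 receptors higher in titled GFP- in vehicle pools and 39 in odor pools, instead of 22 and 22. Quantile normalization gave 27 and 29 higher. Without the pool as a block the calls were 20 higher and 26 lower in vehicle pools and 23 and 23 in odor pools. Leaving out 1 pool at a time gave 17 to 23 higher and 23 to 29 lower in vehicle pools, and 18 to 27 higher and 22 to 27 lower in odor pools. The difference of the gate ratios and both comparisons within a gate had 0 calls among the receptors under every alternative, including 0 to 0 when pools were left out. With the replicate number as a replicate block across treatments they also had 0 calls. Deviations of same-numbered odor and vehicle libraries correlated by 0.157 to 0.210 in titled GFP+ and by 0.088 to 0.161 in titled GFP-. Of the 49 receptors called in vehicle pools 38 kept the call under every alternative that tested them, and of the 47 in odor pools 38 did. In both treatments these include Olfr159 and Olfr371, which the filter on dim probe sets removed, so that alternative did not test them. A filter on dim probe sets left 71 of the 78 receptors. Of 975 values of single receptors named by the rule under the alternatives, 956 kept direction and side of the threshold, 8 lost and 10 gained the call, and 1 reversed: Olfr1402 in vehicle pools went from -0.28 to 0.077 with centring (limma, adjusted p = 0.744). The cause was not tested. Signal near background limits the ratios of dim receptors.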
